A study of Mus musculus with 28 samples.

Results

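Mouse embryonic fibroblasts induced to reprogram in the presence of all 4 added compounds were compared with fibroblasts reprogrammed with doxycycline alone. The comparison was defined by treatment, as 3 libraries labelled DOX 3C UNC against 3 labelled DOX, and covers 6 of the 28 samples in the series and all 54109 genes of the reprogramming table. In DOX 3C UNC, cells received doxycycline at 1 µg/ml, L-ascorbic acid at 50 µg/ml, the GSK3 inhibitor CHIR99021 at 3 µM, 250 nM of TGF-b RI Kinase Inhibitor II (these 3 are called 3C) and 1 µM of UNC0638 (UNC), which blocks the histone methyltransferases G9a and GLP. In DOX, cells received doxycycline at the same dose and none of the other compounds. Per the labels, every library of both groups came from fibroblasts of midgestation embryos that were heterozygous for Rosa26-rtTA and Oct4-GFP. They also carried a transgene driven by doxycycline, either OKSM on 1 chromosome or OKS, which lacks Myc, on both, and the allele of each library was not given. Cells were seeded on irradiated feeder cells in embryonic stem cell medium. The labels give neither the day on which RNA was taken, nor whether feeder RNA or unreprogrammed cells were removed, nor whether replicates were separate cultures, so p-values measure the spread between these libraries, which may be technical. Effects of the single members of 3C cannot be told apart here.

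Reprogramming with Oct4, Sox2, Klf4 and Myc turns fibroblasts towards pluripotency through an early loss of mesenchymal identity. GSK3 inhibition stabilises beta-catenin and so activates Wnt target genes, TGF-beta receptor inhibition blocks SMAD2 and SMAD3 signalling that maintains contractile and matrix genes, and ascorbic acid is a cofactor of dioxygenases that demethylate histones and oxidise 5-methylcytosine. G9a and GLP, the proteins of Ehmt2 and Ehmt1, deposit H3K9me2, a mark of repressed chromatin. In bulk RNA, fewer cells of a type and less RNA per cell cannot be told apart.

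Sequencing depth was 12649516 to 13791985 reads in genes in the DOX 3C UNC libraries and 10616764 to 12904676 in the DOX libraries. Libraries of 1 group differed by more than counting error, with a chi-square per degree of freedom of 2.93 to 7.80 over the 12 replicate pairs of the reprogramming table. The fibroblast genes Col1a1, Vim and Thy1 were detected in every library of both groups. The pluripotency genes Dppa4, Dppa5a, Esrrb and Utf1 were at 0 in all 6 libraries and Nanog was at 2.42 to 5.82 normalised counts in DOX 3C UNC and 2.45 to 7.21 in DOX. Zfp42 was at 3.49, 2.42 and 1.10 in DOX 3C UNC and at 0 in the DOX libraries. Lin28a and Sall4 reached 2.21 and 1.21 in DOX 3C UNC and were at 0 in DOX. Tdgf1 was at 1.16, 0 and 0 in DOX 3C UNC and 2.45, 1.20 and 1.46 in DOX. All of these were too low to test. DOX 3C 1, which enters the shared estimate of the spread and every DOX 3C value, stood apart in fetal liver and erythroid markers. These summed to 4745 normalised counts in it, against 362 to 509 in DOX 3C UNC, 248 to 286 in DOX UNC and 246 to 323 in DOX, and Alb was at 1655 in it and at 51.8 and 109 in the other DOX 3C libraries. Without DOX 3C 1 (a fit added after the data had been seen) 8046 genes were called in DOX 3C UNC against DOX, in place of 8053. Values that rest on it are given without it where that changed a call. Values are normalised counts, that is reads divided by 1 factor per library. Fold changes are on the log2(normalised count + 1) scale ± standard error, DOX 3C UNC over DOX, with adjusted p from limma over all genes tested.

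Promoter sequences of genes that carry the Wnt, aryl hydrocarbon receptor and NRF2 results described further on are given first. Each is the 250 bases before a start listed for the gene, on its own strand (RefSeq, GRCm38.p6, the assembly of mm10). Where a gene had several listed promoters, the window with the most matches was taken. The windows of Axin2 and Cyp1a1 lie inside the full span of the gene. Capitals mark every match, on either strand, to the letters searched for that pathway. The AHR and NRF2 letters were chosen after the values had been seen. For the Wnt genes the letters were CTTTGAT or, on the other strand, ATCAAAG, the core bound by TCF and LEF factors. For Axin2, a Wnt feedback gene with a large increase, the window chr11:108920099-108920348 (plus strand) had no match. For Tnfrsf19, a Wnt target, the window chr14:61037988-61038237 (minus strand) had 1.
Axin2: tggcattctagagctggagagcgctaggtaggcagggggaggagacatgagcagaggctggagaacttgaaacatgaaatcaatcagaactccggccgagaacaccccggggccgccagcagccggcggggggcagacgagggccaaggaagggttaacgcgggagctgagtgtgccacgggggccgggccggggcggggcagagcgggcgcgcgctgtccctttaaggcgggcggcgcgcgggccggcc
Tnfrsf19: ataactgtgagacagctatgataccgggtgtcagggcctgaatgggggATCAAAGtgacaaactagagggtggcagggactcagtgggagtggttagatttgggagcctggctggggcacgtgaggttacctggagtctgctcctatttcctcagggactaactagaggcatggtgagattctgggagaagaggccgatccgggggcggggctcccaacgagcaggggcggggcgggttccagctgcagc
Of the 8 Wnt genes called higher that had a listed promoter, 1 held these letters in any of its promoters. Counted by promoter this was 1 of 11, against 3.21% of all 32851 promoters of the same length. For the AHR the letters were GCGTG or CACGC, the core of the xenobiotic response element. The windows are chr9:57697363-57697612 (plus strand) for Cyp1a1, chr13:74292332-74292581 (minus strand) for Ahrr and chr17:79715062-79715311 (minus strand) for Cyp1b1.
Cyp1a1: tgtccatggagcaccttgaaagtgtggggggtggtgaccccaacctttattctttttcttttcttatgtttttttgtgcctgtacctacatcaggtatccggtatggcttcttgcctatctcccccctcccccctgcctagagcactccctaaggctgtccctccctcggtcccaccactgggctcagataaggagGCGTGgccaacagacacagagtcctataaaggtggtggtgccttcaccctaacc
Ahrr: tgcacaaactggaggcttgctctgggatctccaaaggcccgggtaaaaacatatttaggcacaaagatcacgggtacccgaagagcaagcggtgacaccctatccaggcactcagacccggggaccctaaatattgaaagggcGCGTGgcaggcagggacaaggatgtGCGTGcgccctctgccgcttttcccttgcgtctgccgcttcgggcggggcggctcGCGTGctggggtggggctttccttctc
Cyp1b1: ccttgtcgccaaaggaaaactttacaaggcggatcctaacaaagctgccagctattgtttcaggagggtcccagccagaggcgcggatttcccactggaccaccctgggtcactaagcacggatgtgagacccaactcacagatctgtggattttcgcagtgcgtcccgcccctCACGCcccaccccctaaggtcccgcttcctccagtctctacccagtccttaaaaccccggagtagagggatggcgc
Of 5 AHR genes called higher with a listed promoter, 4 held the core (Ahrr, Cyp1a1, Cyp1b1 and Tiparp), against 28.2% of all promoters. For NRF2 the letters were TGACNNNGC or GCNNNGTCA, the core of the antioxidant response element. The windows are chr1:21240335-21240584 (plus strand) for Gsta3 and chr2:75704664-75704913 (minus strand) for Nfe2l2.
Gsta3: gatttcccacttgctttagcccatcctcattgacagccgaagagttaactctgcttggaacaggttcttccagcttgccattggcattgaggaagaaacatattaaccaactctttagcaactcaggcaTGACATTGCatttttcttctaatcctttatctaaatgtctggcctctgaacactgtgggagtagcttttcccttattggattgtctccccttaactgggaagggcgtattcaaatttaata
Nfe2l2: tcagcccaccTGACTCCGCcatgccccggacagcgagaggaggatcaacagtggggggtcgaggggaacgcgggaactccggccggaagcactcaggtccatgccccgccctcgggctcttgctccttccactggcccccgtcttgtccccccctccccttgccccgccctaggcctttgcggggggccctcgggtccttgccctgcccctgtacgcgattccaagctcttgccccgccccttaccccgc
Of 11 NRF2 genes called higher with a listed promoter, 5 held the core in any of their promoters (G6pdx, Gclm, Gsta3, Nfe2l2 and Txnrd1). Counted by promoter this was 5 of 14, against 10.2% of all promoters. A match is a description of these letters, not a binding site, and a window without one says nothing about the factor.

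Across the genome, 4080 of 16138 genes tested (25.3%) were higher in DOX 3C UNC than in DOX and 3973 (24.6%) were lower, at an adjusted p below 0.05 (limma, n = 3 libraries each), together 49.9%. The 6 libraries did not overlap between groups for 55.4% of genes tested, 28.2% higher and 27.1% lower. At least 2-fold changes were fewer, with 838 genes higher (5.19%) and 952 lower (5.9%). Changes of at least 8-fold numbered 117 higher and 67 lower. The median absolute log2 fold change of called genes was 0.50. The median log2 fold change of all genes tested, sign included, was 0.01. Calls were more frequent at higher levels. Among equal classes by mean level over the 6 libraries, the lowest had 13.5% higher and 14.6% lower, and the highest 32.7% and 33.3%. In the same fit, DOX 3C against DOX had 7978 called genes (49.4%), DOX UNC against DOX had 98 (0.607%) and DOX 3C UNC against DOX 3C had 1880 (11.6%). With the replicate number as a block, DOX UNC against DOX had 409 and DOX 3C UNC against DOX 3C had 2871. The interaction of 3C and UNC was called for 10 genes (0.062%), or 413 with the block. Without DOX 3C 1 and without the block, the counts were 7263 for DOX 3C against DOX and 110 for DOX UNC against DOX. They were 1618 for DOX 3C UNC against DOX 3C and 70 for the interaction. These comparisons share libraries, so their values are set side by side for the genes described here.

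**Figure D1:**
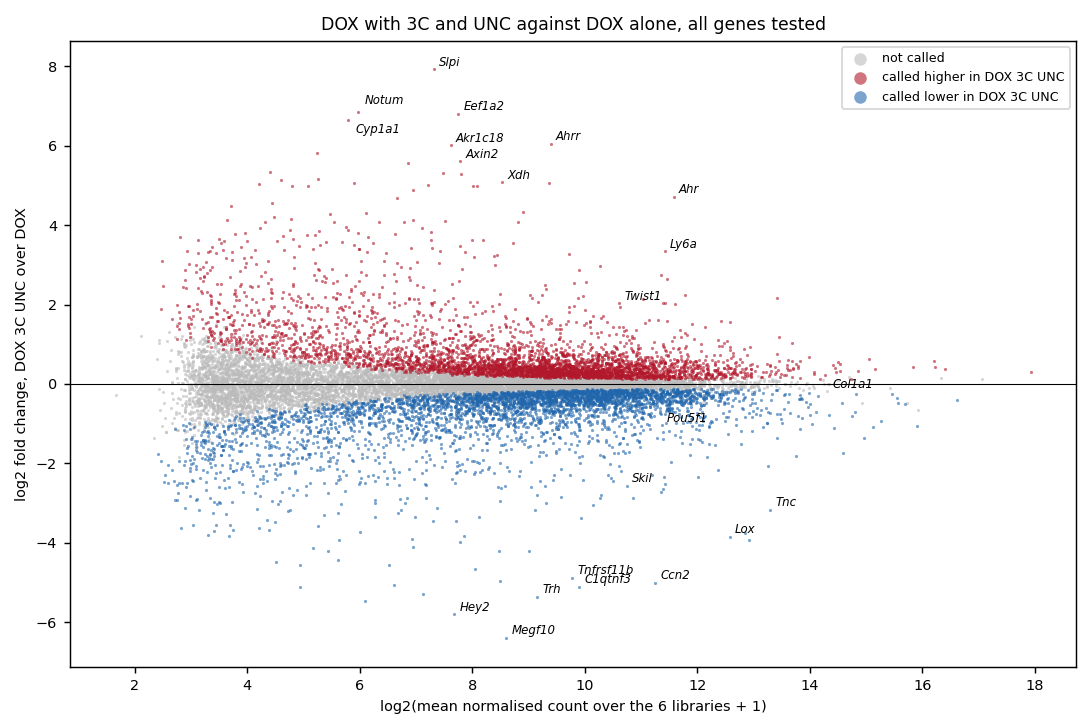
Log2 fold change, DOX 3C UNC over DOX, of each of the 16138 genes tested (y axis) against the log2 of its mean normalised count over the 6 libraries plus 1 (x axis), coloured by call, with some of the genes described in the text labelled. Increases reach 7.93 (Slpi) and decreases -6.40 (Megf10).

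The largest increase was that of Slpi. Slpi, a secreted leukocyte protease inhibitor, had 302, 299 and 348 normalised counts in DOX 3C UNC libraries, against 0, 1.20 and 0 in DOX libraries. All 3 libraries with the compounds lay far above the others, and the group totals of 821 reads and 1 read gave a ratio of 739 (95% interval 132 to 29241, counting error only). Eef1a2, a translation elongation factor usually found in neurons and muscle, had 439, 392 and 443 in DOX 3C UNC and 1.23, 3.60 and 4.39 in DOX (log2 fold change 6.80 ± 0.29, adjusted p = 3.52e-12). Other increases of this size were those of the steroid dehydrogenase gene Akr1c18 (6.01 ± 0.39), the receptor gene Mrgprf (5.57 ± 0.26), the ciliary rootlet gene Crocc2 (5.30 ± 0.37), the water channel Aqp5 (5.28 ± 0.30), Tmem26 (5.07 ± 0.34) and Xdh. Xdh, which makes xanthine oxidoreductase, had 813, 638 and 688 in DOX 3C UNC against 18.4, 22.8 and 19 in DOX (5.08 ± 0.14, adjusted p = 8.73e-15).

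The largest decrease was that of Megf10. Megf10, an engulfment receptor, had 6.99, 10.9 and 6.63 normalised counts in DOX 3C UNC against 803, 665 and 819 in DOX (-6.40 ± 0.18, adjusted p = 8.73e-15). Hey2, a transcriptional repressor downstream of Notch, had 5.82, 6.06 and 6.63 in DOX 3C UNC against 331, 472 and 404 in DOX (-5.80 ± 0.18). The groups were far apart for both genes. C1qtnf3, a secreted C1q-like adipokine, had 48.9, 61.8 and 47.5 in DOX 3C UNC and 1961, 1779 and 1803 in DOX (-5.11 ± 0.10, adjusted p = 2.35e-16). Tnfrsf11b, the decoy receptor osteoprotegerin, had 54.8, 49.7 and 65.2 in DOX 3C UNC against 1463, 1836 and 1779 in DOX (-4.88 ± 0.13). Others among the 12 largest were the hair keratin Krt84 (-5.46 ± 0.40), the prohormone of thyrotropin-releasing hormone Trh (-5.36 ± 0.29), the fatty acid binding protein Fabp7 (-5.06 ± 0.38) and the neurotrophin receptor Ngfr (-4.97 ± 0.21). Kank4, of a family of adhesion scaffold proteins, was at -4.66 ± 0.30 and the receptor phosphatase Ptprb at -4.56 ± 0.25.

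Of 9 tested AHR genes (10 measured), 6 were higher and 1 lower, against 25.3% and 24.6% of all genes tested. The median log2 fold change of the 9 was 1.93, against 0.01 for all genes tested. The receptor itself was among them: Ahr, a ligand-activated transcription factor for planar aromatic compounds, had 6342, 5085 and 6231 normalised counts in DOX 3C UNC against 251, 192 and 225 in DOX (4.72 ± 0.18, adjusted p = 4.93e-13). Its repressor Ahrr had 1451, 1194 and 1318 in DOX 3C UNC against 24.5, 15.6 and 17.6 in DOX (6.05 ± 0.18, adjusted p = 3.23e-14). Every library with the compounds lay above every DOX library for both. Cyp1a1, the cytochrome P450 most used as a readout of the receptor, had 90.9, 60.6 and 173 in DOX 3C UNC and 0 in all 3 DOX libraries, at least 85.6-fold higher by a floor of 3 reads over the DOX group. The related Cyp1b1 rose by 2.17 ± 0.12 on the log2 scale. Tiparp, a PARP enzyme that restrains the receptor, rose by 0.29 ± 0.08. The dimer partner Arnt was at -0.12 (adjusted p = 0.0966), and Aldh3a1, an aldehyde dehydrogenase, fell by 0.47. Beside these, Ahr was at 3.91 and Ahrr at 5.41 in DOX 3C over DOX, and at 0.29 and 0.63 in DOX UNC over DOX, where neither was called. With 3C present, UNC raised Ahr by 0.81 ± 0.18 (adjusted p = 0.00603) and Ahrr by 0.64 ± 0.18 (adjusted p = 0.0302).

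NRF2, encoded by Nfe2l2, drives glutathione, thioredoxin and NADPH-producing genes under oxidative or electrophilic stress. All but 1 of its 14 tested listed genes (16 measured) were higher in DOX 3C UNC, against 25.3% of all genes tested, with a median of 1.10. Nfe2l2 had 5371, 5293 and 5474 in DOX 3C UNC against 2494, 2426 and 2442 in DOX (1.13 ± 0.05, adjusted p = 4.40e-12). Nqo1, a quinone reductase that is also on the AHR list, had 2536, 2247 and 2681 in DOX 3C UNC against 754, 572 and 637 in DOX (1.93 ± 0.12). No library of either group crossed into the other for these genes. The largest changes among the rest were in Gsta3, a glutathione S-transferase (2.43 ± 0.18), the haem oxygenase Hmox1 (1.57 ± 0.09), the sulfiredoxin Srxn1 (1.54 ± 0.08), the cystine transporter Slc7a11 (1.51 ± 0.10) and Gstm1 (1.51 ± 0.12). Gsta4 fell by 1.33 ± 0.10. Counts of glutathione S-transferase genes are uncertain, since near-identical copies can share reads. The same 14 genes had a median of 0.99 in DOX 3C over DOX and 0.02 in DOX UNC over DOX.

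Wnt feedback and target genes were mostly higher. Of 18 tested (24 measured), 12 rose and 2 fell (1 without DOX 1 or without DOX 3C UNC 2), against 25.3% and 24.6% of all genes tested. The median was 1.08. With genes required to reach 50 normalised counts in at least 3 libraries the count of increases was 6. Either filter admits a gene near 0 in DOX, such as Notum, only through groups where it is higher. The count and the median thus follow in part from the filter. Axin2, a scaffold of the complex that destroys beta-catenin, had 466, 442 and 379 normalised counts in DOX 3C UNC against 4.90, 10.8 and 8.79 in DOX (5.61 ± 0.27, adjusted p = 1.91e-11). Notum, a secreted enzyme that strips the lipid from Wnt proteins, had 181, 75.2 and 112 in DOX 3C UNC and 0 in all DOX libraries, at least 95.5-fold higher by the same floor. The 2 groups did not overlap for either gene. Rnf43, a ligase that removes Wnt receptors, had 167 reads in the DOX 3C UNC group and 3 in the DOX group, a ratio of 50.1 (95% interval 16.9 to 246). The transcription factor Tcf7 rose by 2.30 ± 0.20, the receptor gene Tnfrsf19 by 1.96 ± 0.39, the secreted Wnt-binding protein Sfrp1 by 1.56 ± 0.13 and the feedback inhibitors Nkd1 and Nkd2 by 1.49 ± 0.26 and 1.46 ± 0.17. The decreases were those of Lgr6, an R-spondin receptor (12.8, 2.42 and 5.52 in DOX 3C UNC, 200, 299 and 310 in DOX, -5.30 ± 0.38), and the transcription factor Lef1 (-0.78 ± 0.26, adjusted p = 0.0192). Znrf3, the paralogue of Rnf43, was at 0.05 (adjusted p = 0.623) and the cyclin gene Ccnd1 at 0.12 (adjusted p = 0.268). Axin2 was at 5.43 in DOX 3C over DOX and -0.06 in DOX UNC over DOX.

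**Figure D2:**
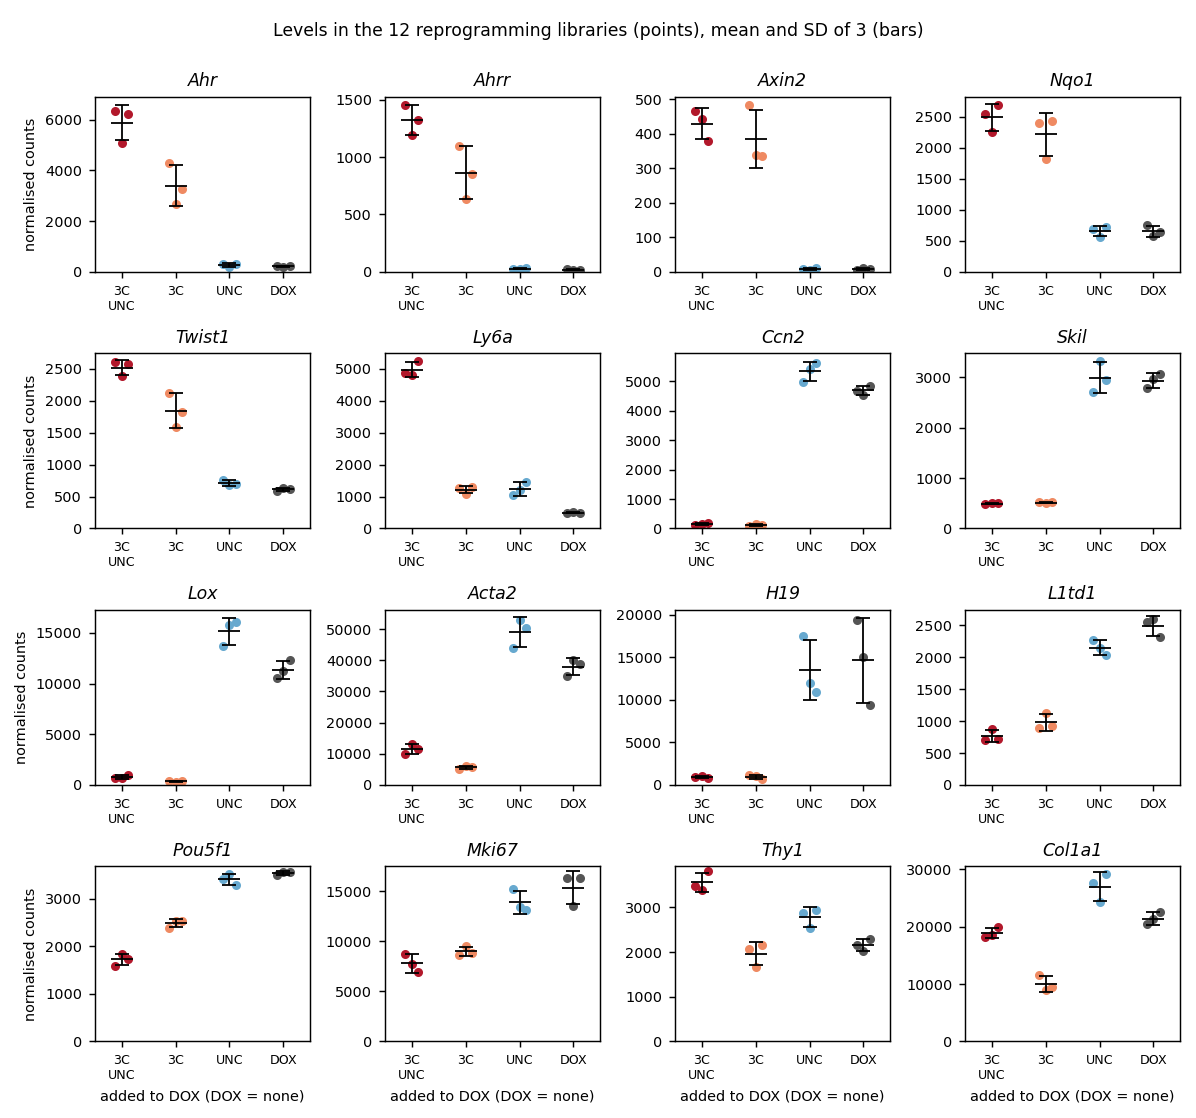
Normalised counts (y axis, from 0) of 16 genes in each of the 12 reprogramming libraries, with doxycycline in every group and 3C with UNC, 3C, UNC or nothing added (x axis, left to right); points are libraries and bars the mean and SD of 3. For Ahr, Ahrr, Axin2, Ccn2, Skil and H19 the DOX 3C UNC and DOX 3C libraries lie on the same side of the others, Ly6a is highest in DOX 3C UNC, and Col1a1 of DOX 3C UNC lies above DOX 3C and just under DOX.

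TGF-beta pathway genes were lower more often than higher: 12 of 22 fell and 7 rose, against 24.6% and 25.3% of all genes tested. The median was -0.41. Feedback genes that TGF-beta signalling itself induces were the ones with the largest falls. Skil, a SMAD corepressor, had 481, 496 and 499 normalised counts in DOX 3C UNC against 2782, 2957 and 3063 in DOX (-2.57 ± 0.07, adjusted p = 5.29e-15). Ldlrad4 (-2.23 ± 0.14) and Pmepa1 (-2.20 ± 0.11), both of which hold SMADs away from the receptor, and the inhibitory Smad7 (-1.25 ± 0.09) also fell. Of the ligands, Tgfb1 fell by 0.86 ± 0.15 and Tgfb3 by 0.54 ± 0.07, while Tgfb2 rose by 0.37 ± 0.13. Of the receptors, Tgfbr1 fell by 0.75 ± 0.06 and Acvrl1 by 1.16 ± 0.13, whereas Tgfbr2 rose by 0.63 ± 0.06. The co-receptor Tgfbr3, betaglycan, had 1852, 1559 and 1618 in DOX 3C UNC against 314, 205 and 187 in DOX (2.86 ± 0.16, adjusted p = 9.61e-11).

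Of 19 BMP pathway and ID genes, 8 were higher and 4 lower, against 25.3% and 24.6% of all genes tested. The median was 0.22. The ID proteins, which block basic helix-loop-helix factors and are induced by BMP signalling, split: Id1 (0.80 ± 0.07), Id2 (0.60 ± 0.07) and Id3 (0.95 ± 0.07) rose and Id4 (-0.60 ± 0.14) fell. The ligand Bmp2 had 6.99, 7.27 and 11 in DOX 3C UNC against 95.6, 81.7 and 86.4 in DOX (-3.26 ± 0.38), and Bmp6 rose by 1.06 ± 0.12. Among extracellular antagonists, Grem1 rose by 0.82 ± 0.13 and Nog fell by 0.95 ± 0.17.

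Extracellular matrix genes did not move as a block. Of 10 fibrillar collagens, 6 fell and 2 rose (median -0.86), and of 18 network, beaded and FACIT collagens 6 fell and 6 rose (median 0.02). Of all genes tested, 24.6% fell and 25.3% rose. Col1a2, a chain of type I collagen, had 39410, 38622 and 39997 normalised counts in DOX 3C UNC against 78503, 89365 and 79605 in DOX (-1.07 ± 0.07, adjusted p = 1.18e-09). Its partner chain Col1a1 had 18146, 18517 and 19882 in DOX 3C UNC against 20402, 21257 and 22532 in DOX. Although the groups did not overlap, Col1a1 was not called (-0.18 ± 0.08, adjusted p = 0.0779), but it was with DESeq2 (adjusted p = 0.0468), when only the 6 libraries were fitted (adjusted p = 0.0271) and without DOX 3C 1 (adjusted p = 0.0315). Col11a1 (-2.87 ± 0.19) and the cartilage collagen Col2a1 (-1.84 ± 0.26) fell, and Col24a1 (2.26 ± 0.31) and Col5a3 (1.15 ± 0.13) rose. In the second class Col8a2 (-3.49 ± 0.41), the basement membrane chain Col4a1 (-1.13 ± 0.09) and Col6a3 (-1.11 ± 0.07) fell, whereas Col10a1 (1.34 ± 0.19), Col12a1 (1.18 ± 0.09) and Col18a1 (1.07 ± 0.16) rose. In DOX 3C over DOX, Col1a1 was at -1.11, and UNC added to 3C raised it by 0.93 ± 0.08 (adjusted p = 2.68e-06).

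Enzymes that process collagen fell more often than they rose, 11 against 5 of 22. Of all genes tested, 24.6% fell and 25.3% rose. Lox, which cross-links collagen and elastin, had 716, 687 and 976 normalised counts in DOX 3C UNC and 10548, 11262 and 12293 in DOX (-3.85 ± 0.12, adjusted p = 2.99e-14). The 2 groups were far apart. Loxl2 followed at -2.37 ± 0.14, while Loxl1 rose by 0.99 ± 0.07. The prolyl hydroxylase subunit P4ha1 fell by 0.80 ± 0.06 and the lysyl hydroxylases Plod2 and Plod3 were at -0.92 ± 0.07 and 0.68 ± 0.05. Of 17 elastic fibre genes, 10 fell and 4 rose, with Fbln2 (-2.06 ± 0.10), Fbln5 (-1.52 ± 0.08) and Ltbp2 (-1.26 ± 0.12) lower and Emilin2 (2.16 ± 0.15) and Ltbp1 (1.01 ± 0.08) higher.

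Matricellular genes and proteoglycans included some of the most changed abundant transcripts, with 10 of 23 lower and 8 higher, against 24.6% and 25.3% of all genes. Ccn2, the connective tissue growth factor, had 112, 159 and 170 normalised counts in DOX 3C UNC against 4691, 4546 and 4839 in DOX (-5.01 ± 0.14, adjusted p = 1.36e-14). Its family member Ccn5 had 1072, 760 and 903 in DOX 3C UNC against 33.1, 44.4 and 58.6 in DOX (4.32 ± 0.24, adjusted p = 7.67e-11). These related genes thus lay on opposite sides of DOX with no overlap in either. The adhesion-modulating glycoproteins Tnc (1731, 2375 and 1967 in DOX 3C UNC against 16994, 17841 and 19359 in DOX, -3.17 ± 0.10) and Postn (-1.99 ± 0.16) fell, as did the small proteoglycans Bgn (-1.52 ± 0.10) and Dcn (-1.19 ± 0.18). The cartilage proteoglycan Acan (2.51 ± 0.14), Spp1, which encodes osteopontin (1.38 ± 0.12), and Tgfbi (0.94 ± 0.08) rose. Matrix proteases and their inhibitors went mostly up, 11 of 17 higher and 3 lower (median 0.43). Mmp19 (3.10 ± 0.20), Adamts5 (1.59 ± 0.20), Adamts4 (1.39 ± 0.09) and Mmp2 (1.19 ± 0.09) rose, and the inhibitor Timp3 (-2.53 ± 0.07), Mmp11 (-2.43 ± 0.10) and Adamts12 (-1.45 ± 0.07) fell.

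Of 16 smooth muscle contractile genes, which mark myofibroblasts, 10 fell and 3 rose (median -0.63), against 24.6% and 25.3% of all genes tested. Acta2, smooth muscle actin, had 9835, 13188 and 11500 normalised counts in DOX 3C UNC against 34828, 40182 and 38971 in DOX (-1.73 ± 0.10, adjusted p = 1.12e-10). Tagln, an actin-binding protein, fell by 3.04 ± 0.14. Each DOX 3C UNC library was below each DOX library for Acta2. The increases were in Des, the intermediate filament desmin (351, 202 and 239 in DOX 3C UNC against 74.8, 36.0 and 43.9 in DOX, 2.36 ± 0.31), Myh11 (0.68 ± 0.26, adjusted p = 0.0407) and Mylk (0.65 ± 0.21, adjusted p = 0.0176), and in 3 of the fits that left out 1 library (DOX 2, DOX 3C UNC 1 or DOX 3C UNC 3) 1 of these genes was called higher. The list's median was -1.53 in DOX 3C over DOX and 0.47 in DOX UNC over DOX. With 3C present, UNC raised Acta2 by 1.02 ± 0.10 (adjusted p = 3.05e-06) and Lox by 1.09 ± 0.12 (adjusted p = 9.91e-06). In both genes the level with all compounds thus lay between those of DOX 3C and DOX.

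**Figure D3:**
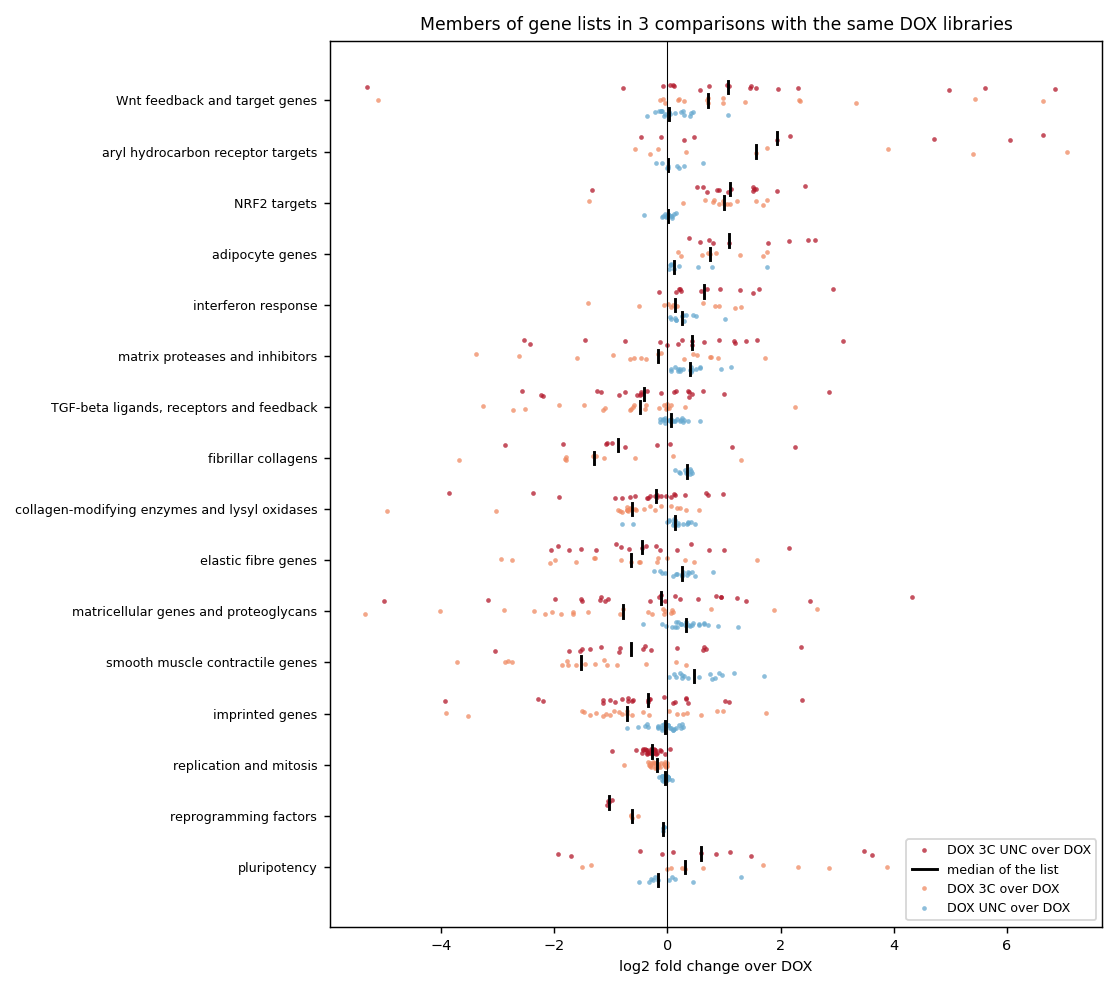
Log2 fold change over DOX (x axis) of each tested member of 16 gene lists (rows), in DOX 3C UNC, DOX 3C and DOX UNC, with the list median as a black bar; the 3 comparisons share the DOX libraries. The smooth muscle list, for example, has medians of -0.63, -1.53 and 0.47 in that order.

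All 4 reprogramming factor genes were lower in DOX 3C UNC. Pou5f1 (Oct4) had 1594, 1839 and 1739 normalised counts in DOX 3C UNC against 3499, 3556 and 3568 in DOX (-1.04 ± 0.05, adjusted p = 5.03e-11). Sox2 had 1301, 1629 and 1531 in DOX 3C UNC against 3133, 3083 and 2861 in DOX (-1.03 ± 0.07). Klf4 (-0.99 ± 0.05) and Myc (-1.07 ± 0.05) fell by similar amounts, and no library of the 2 groups overlapped for any of them. These reads combine endogenous and transgenic transcripts, so a change in the doxycycline-driven allele and one in the endogenous gene cannot be told apart. In DOX 3C over DOX the 4 genes were at -0.51 to -0.65, and UNC added to 3C lowered Pou5f1 by a further 0.53 ± 0.05 (adjusted p = 7.46e-06).

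Of 24 pluripotency genes measured, 13 were too low to test, and of the 11 tested 5 were higher and 3 lower (3 and 3 under the filter at 50 normalised counts). The shares of all genes tested were 25.3% higher and 24.6% lower. Tfcp2l1, a transcription factor of naive pluripotency, had 460, 522 and 414 in DOX 3C UNC against 58.9, 26.4 and 32.2 in DOX (3.61 ± 0.25, adjusted p = 1.36e-09). Gdf3, a TGF-beta family ligand, had 61.7, 42.4 and 58.6 in DOX 3C UNC against 3.68, 3.60 and 4.39 in DOX (3.48 ± 0.27). The RNA-binding protein gene L1td1 went the other way, with 707, 878 and 720 in DOX 3C UNC against 2558, 2599 and 2312 in DOX (-1.70 ± 0.09). Groups were apart for all 3. The growth factor Fgf4, an Oct4 and Sox2 target, fell by 1.93 ± 0.15, and the zinc finger gene Zfp296 rose by 1.48 ± 0.16.

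Epithelial and mesenchymal genes both had members that rose. Of 14 tested epithelial genes (24 measured), 7 were higher and 4 lower, with 3 higher under the filter at 50 normalised counts. Cdh1, E-cadherin, had 234, 192 and 277 normalised counts in DOX 3C UNC against 72.3, 69.7 and 73.2 in DOX (1.68 ± 0.21, adjusted p = 3.53e-06). Cldn4, a tight junction claudin, had 39 reads in the DOX 3C UNC group and 1 in the DOX group, a ratio of 35.1 (95% interval 5.94 to 1422). Cldn4 passed the filter for testing only through the DOX 3C UNC libraries. Krt18 rose by 1.30 ± 0.33, whereas its partner Krt8 fell by 1.20 ± 0.42 and Krt19 by 0.62 ± 0.12. Of 13 EMT factors and mesenchymal genes, 6 rose and 4 fell, against 25.3% and 24.6% of all genes tested. Twist1, a helix-loop-helix factor of mesenchyme, had 2604, 2381 and 2571 in DOX 3C UNC against 590, 633 and 619 in DOX (2.03 ± 0.08, adjusted p = 1.55e-12). Snai1 (0.97 ± 0.14), Snai2 (0.91 ± 0.14) and Zeb2 (0.79 ± 0.07), repressors of E-cadherin, rose as well, and Zeb1 fell by 0.26 ± 0.06. Fibronectin, Fn1 (-0.79 ± 0.08), and N-cadherin, Cdh2 (-0.73 ± 0.10), fell, and Vim was at 0.15 (adjusted p = 0.0760).

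The targets of UNC0638 were not called, with log2 fold changes of -0.12 ± 0.05 for Ehmt1 (adjusted p = 0.0578) and -0.02 for Ehmt2 (adjusted p = 0.734). Ehmt1 was called lower with edgeR on recovered reads (adjusted p = 0.0314), with TMM scaling (adjusted p = 0.0287), with genes required to reach 50 normalised counts (adjusted p = 0.0473) and without DOX 3C UNC 2 (adjusted p = 0.0251). Of 23 H3K9 methylation enzymes and readers, 11 were lower and 4 higher, with small changes, against 24.6% and 25.3% of all genes tested. The HP1 gene Cbx5 had 6367, 7032 and 6770 normalised counts in DOX 3C UNC against 10260, 9806 and 10881 in DOX (-0.62 ± 0.06), and the H3K9 demethylases Kdm3a (-0.64 ± 0.06) and Kdm3b (-0.58 ± 0.05) fell. Atf7ip, the stabilising partner of SETDB1, rose by 0.68 ± 0.06. Of 8 DNA methylation and TET genes, 6 fell and 0 rose, among them Uhrf1 (-0.43 ± 0.05), Tet3 (-0.39 ± 0.08), Dnmt1 (-0.35 ± 0.05) and Dnmt3a (-0.32 ± 0.06). Germline genes held silent in somatic cells stayed largely below the filter, with 3 of 25 tested. Tex19.1 (2.86 ± 0.67, adjusted p = 0.00173) rose at low counts, with 26.8, 23 and 19.9 in DOX 3C UNC against 9.81, 2.40 and 0 in DOX, and Tdrkh fell by 1.24 ± 0.18.

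Imprinted genes fell more often than they rose, 14 against 5 of 25 tested. The shares of all genes tested were 24.6% lower and 25.3% higher. The non-coding RNA H19 had 961, 1043 and 766 normalised counts in DOX 3C UNC against 19357, 15073 and 9440 in DOX (-3.94 ± 0.23, adjusted p = 1.75e-10). DOX libraries differed widely among themselves, and the lowest of them still lay far above every DOX 3C UNC library. Zdbf2 (-2.28 ± 0.14), the neighbouring growth factor gene Igf2 (-2.19 ± 0.56), Plagl1 (-1.14 ± 0.09) and Grb10 (-0.93 ± 0.05) also fell. Peg10, of retroviral origin, had 960, 927 and 1289 in DOX 3C UNC against 195, 175 and 231 in DOX (2.39 ± 0.15), and Igf2r, which clears IGF2, rose by 1.02 ± 0.08. H19 was at -3.92 in DOX 3C over DOX and -0.09 in DOX UNC over DOX.

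Replication and mitosis genes fell together by small amounts: 22 of 26 were lower and 0 higher (median -0.28). Mki67, the antigen of cycling cells, had 8739, 7706 and 6893 normalised counts in DOX 3C UNC against 16283, 13466 and 16261 in DOX (-0.98 ± 0.09, adjusted p = 3.25e-08). It had the largest change on the list, ahead of the helicase subunit Mcm6 (-0.56 ± 0.05), the motor Kif11 (-0.45 ± 0.05) and the checkpoint kinase Bub1 (-0.44 ± 0.05). The 4 not called were Pcna, Mcm2, Ccne1 and E2f1. Of 20 CDK inhibitors and p53 targets, 8 rose and 4 fell. Gdf15, a stress-induced cytokine, had 487, 450 and 473 in DOX 3C UNC against 46.6, 44.4 and 61.5 in DOX (3.20 ± 0.19). The CDK4 inhibitor Cdkn2b (0.88 ± 0.08), Trp53inp1 (0.74 ± 0.08) and Cdkn1a (0.56 ± 0.09) rose, and Trp53 fell by 0.50 ± 0.06. Immediate early genes split, with 6 of 19 higher and 8 lower, against 25.3% and 24.6% of all genes tested. Ier3 (2.16 ± 0.11) and the AP-1 subunits Fosl2 (1.57 ± 0.11) and Junb (0.80 ± 0.06) rose, while Egr2 (-3.35 ± 0.28), the ERK phosphatase Dusp6 (-1.81 ± 0.11), Spry4 (-1.44 ± 0.12) and Fos (-1.01 ± 0.09) fell.

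Genes of fat cell differentiation were the list with the highest share of increases, 9 of 9 tested (14 measured; median 1.09). Pparg, the master regulator of adipogenesis, had 198, 189 and 270 normalised counts in DOX 3C UNC against 38.0, 28.8 and 48.3 in DOX (2.49 ± 0.19, adjusted p = 7.90e-09). The fatty acid carrier Fabp4 had 64.1, 46.1 and 78.5 in DOX 3C UNC against 14.7, 6 and 8.79 in DOX (2.61 ± 0.37). No libraries overlapped between groups. Cd36 (2.16 ± 0.36), Cebpb (1.77 ± 0.12) and the desaturase Scd1 (1.09 ± 0.07) rose too, while 5 late markers (Adipoq, Plin1, Lep, Cfd and Retn) were too low to test. Fabp4 was at 0.72 in DOX 3C over DOX, where it was not called (adjusted p = 0.124, or 0.0495 with the replicate block), and at 1.76 in DOX UNC over DOX, where it was. Of 13 bone and cartilage genes, 5 rose and 4 fell, with the sclerostin gene Sost (-3.01 ± 0.20) and the alkaline phosphatase Alpl (-2.40 ± 0.18) lower. Among 24 glycolysis and hypoxia genes, 10 rose and 6 fell: the phosphofructokinase Pfkp rose by 0.91 ± 0.05 and Aldoa by 0.50 ± 0.05, and the hypoxia-induced Egln3 fell by 0.57 ± 0.10. Gapdh rose by 0.87 ± 0.09, a value that is uncertain because its processed pseudogenes can share reads. Of 16 ATF4 stress genes, 5 were higher and 5 lower, and of 22 cholesterol synthesis genes 3 were higher and 4 lower. For these lists, and for the bone and glycolysis lists, the shares of all genes were 25.3% higher and 24.6% lower. Atf3 was at 0.89 ± 0.20 and Hmgcs1, the first committed enzyme of the mevalonate route, at -0.54 ± 0.07.

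Immune-related genes and surface antigens were higher more often than lower. Of 14 Ly6 and fibroblast surface genes, 6 rose and 3 fell, against 25.3% and 24.6% of all genes tested. Ly6a, the antigen Sca-1 of stem and interferon-exposed cells, had 4882, 4811 and 5246 normalised counts in DOX 3C UNC against 477, 508 and 486 in DOX (3.34 ± 0.09, adjusted p = 8.73e-15). It was at 1.31 in DOX 3C over DOX and at 1.32 in DOX UNC over DOX, and the interaction, which tests departure from their sum, was 0.71 ± 0.13 (adjusted p = 0.0507, or 0.0344 without DOX 3C 1). Its neighbour Ly6c1 had 216, 189 and 217 in DOX 3C UNC against 14.7, 9.61 and 10.2 in DOX (4.07 ± 0.26). Thy1, a fibroblast surface protein lost early in reprogramming, had 3467, 3393 and 3809 in DOX 3C UNC against 2154, 2033 and 2289 in DOX (0.72 ± 0.08, adjusted p = 1.04e-06). All DOX 3C UNC libraries were above all DOX libraries. Thy1 was at -0.14 in DOX 3C over DOX (adjusted p = 0.162, or 0.0237 with the replicate block), and UNC added to 3C raised it by 0.86 ± 0.08 (adjusted p = 3.28e-06).

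Of 12 interferon response genes tested (22 measured), 7 rose and 0 fell, led by the guanylate-binding protein Gbp2 (226, 195 and 207 in DOX 3C UNC against 20.8, 32.4 and 27.8 in DOX, 2.93 ± 0.21), the RNA sensor Ifih1 (1.62 ± 0.22) and the tetherin Bst2 (1.51 ± 0.14). Classical members such as Ifit1, Isg15 and Mx1 were too low to test. Of 14 antigen presentation genes, 8 rose and 1 fell, with the immunoproteasome subunits Psmb8 (2.28 ± 0.23), Psmb9 (1.57 ± 0.44) and Psmb10 (0.96 ± 0.10) and the peptide transporter Tap1 (0.60 ± 0.10) higher. H2-K1 was at -0.08 and B2m at -0.01, neither called. Galectin 9, Lgals9, fell by 1.38 ± 0.11. Of 14 cytokine genes, 7 rose and 2 fell. For these lists the shares of all genes tested were 25.3% higher and 24.6% lower. The alarmin Il33 had 249, 255 and 259 in DOX 3C UNC against 6.13, 25.2 and 24.9 in DOX (3.91 ± 0.33). Il6 (3.88 ± 0.43), Cxcl5 (2.05 ± 0.09) and Ptgs2, which makes prostaglandins (1.81 ± 0.11), rose, and the chemokine Cxcl16 fell by 2.90 ± 0.19.

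**Figure D4:**
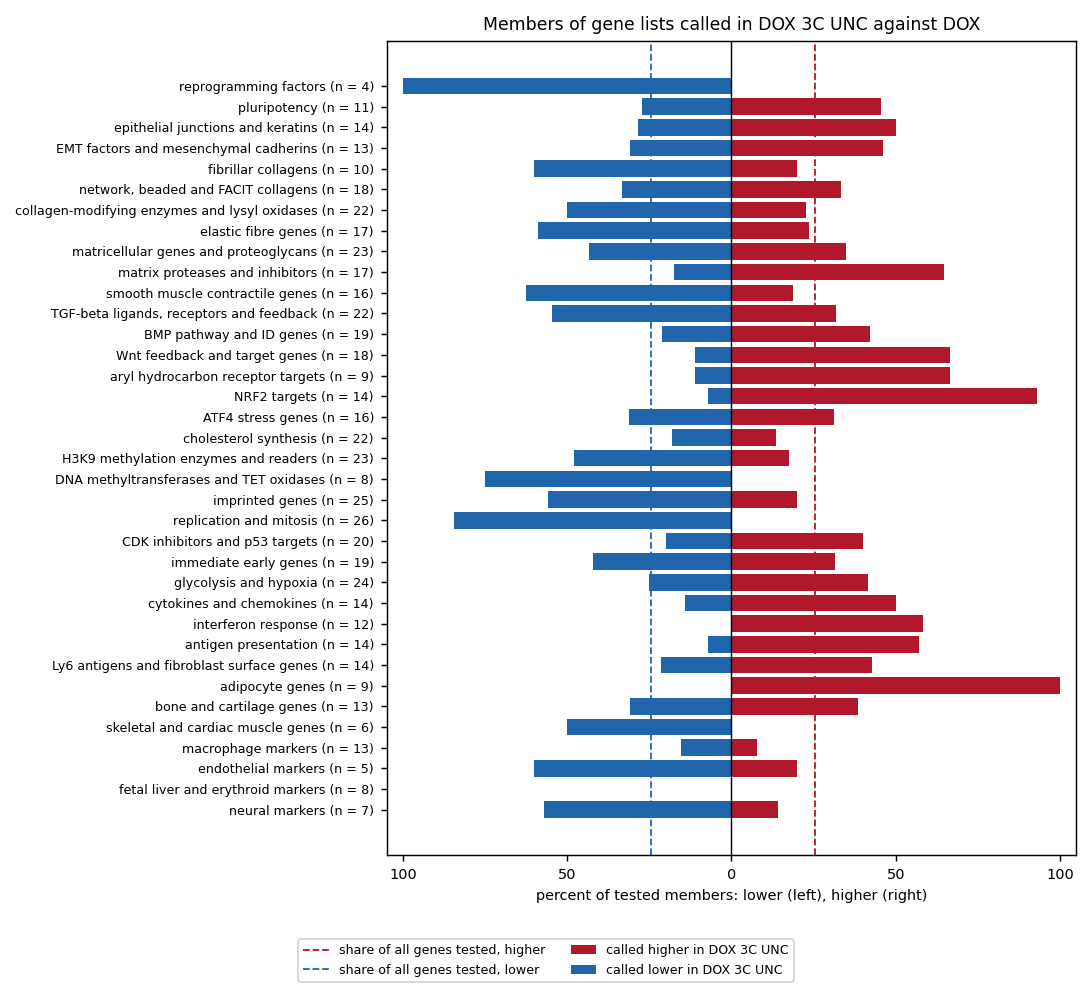
Percent of the tested members of each gene list (rows, with the number tested) called higher (red, right) or lower (blue, left) in DOX 3C UNC against DOX; dashed lines are the shares of all genes tested, 25.3% higher and 24.6% lower. Adipocyte and NRF2 genes have the highest red shares among lists shown, and reprogramming factors and replication and mitosis genes the highest blue ones.

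Markers of other cell types that such cultures can hold were counted in the same fit, where 25.3% of all genes tested were higher and 24.6% lower. Of 13 tested macrophage markers (14 measured), 1 was higher and 2 lower. Lyz2 had 33.8, 211 and 215 in DOX 3C UNC and 20.8, 167 and 99.6 in DOX, low in replicate 1 of both groups, and it was not called (adjusted p = 0.504). The complement genes C1qa, C1qb and C1qc showed the same low replicate 1 and were not called. Laptm5, a lysosomal gene of blood cells, had 18.6, 47.3 and 50.8 in DOX 3C UNC against 647, 730 and 643 in DOX (-4.20 ± 0.25). The leukocyte phosphatase Ptprc also fell (-1.38 ± 0.55, adjusted p = 0.0450), at 1.16 to 4.85 in DOX 3C UNC and 4.90 to 14.6 in DOX. Ptprc was not called with edgeR (adjusted p = 0.0568), DESeq2 (adjusted p = 0.0832) or only the 6 libraries fitted (adjusted p = 0.0585), among other settings. The mannose receptor Mrc1 rose (1.92 ± 0.61, adjusted p = 0.0134). Mrc1 was not called without DOX 1 (adjusted p = 0.0953), DOX 3C UNC 2 (0.0715) or DOX 3C UNC 3 (0.0558). Macrophage markers summed to 240.0 to 638 in DOX 3C UNC and 790 to 1272 in DOX. Laptm5 alone was 18.6 to 50.8 and 643 to 730 of these sums. The median log2 fold change of the list was 0.22, and 10 of the 13 markers were not called. Endothelial markers had 1 of 5 higher and 3 lower, and summed to 1456 to 1928 in DOX 3C UNC and 2586 to 2936 in DOX. Tek made up most of both sums. Egfl7, not called, was at 86.1 to 96.1 in DOX 3C UNC and 63.0 to 93.2 in DOX. The marker called higher, Esam (1.02, adjusted p = 0.0466), was not called with TMM scaling (adjusted p = 0.0511) or DESeq2 (adjusted p = 0.0618), among other settings. The receptor Tek had 1799, 1687 and 1299 in DOX 3C UNC against 2672, 2802 and 2461 in DOX (-0.74 ± 0.09), and Cdh5 was at 2 reads in the DOX 3C UNC group and 24 in the DOX group (ratio 0.0751, 95% interval 0.00860 to 0.302). Of 8 fetal liver and erythroid markers none was called in the fit of all libraries, whose spread includes DOX 3C 1. Alb had 112, 94.6 and 131 in DOX 3C UNC and 76.0, 75.7 and 65.9 in DOX (0.62 ± 0.74, adjusted p = 0.515), but Alb and Afp were called higher with only the 6 libraries fitted (adjusted p = 0.00559 and 0.00992) and without DOX 3C 1 (adjusted p = 0.0231 and 0.0101). Of 7 neural markers, 4 fell and 1 rose, led by Map2 (-1.51 ± 0.09), and they summed to 4556 to 5626 in DOX 3C UNC and 6723 to 7969 in DOX. Nes, the intermediate filament nestin, had 2724, 3347 and 3582 in DOX 3C UNC against 3732, 4167 and 5024 in DOX (-0.42 ± 0.12), and the tubulin-binding Stmn2 had 1276, 1612 and 1264 in DOX 3C UNC against 1905, 1901 and 1660 in DOX (-0.40 ± 0.11). Keratinocyte markers were mostly too low to test (2 of 8), and of 6 skeletal and cardiac muscle genes tested 3 fell and 0 rose. Their part in the results above was not tested.

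Gene families grouped by symbol were added after the counts of called genes had been seen. Some of their members, such as Kif11, Mcm6 and Gsta3, are also on lists above. Of all genes tested, 25.3% were higher and 24.6% lower. Of 86 cytosolic ribosomal protein genes, 63 were higher and 0 lower in DOX 3C UNC (median 0.40), with counts that are uncertain because many pseudogenes resemble them. Of 77 mitochondrial ribosomal protein genes 52 were higher and 1 lower (median 0.27), and of 36 subunits of respiratory complex I 32 were higher and 0 lower (median 0.41). V-ATPase subunits, which acidify lysosomes, had 13 of 17 higher and 1 lower (median 0.43), and glutathione S-transferases 13 of 17 higher and 1 lower (median 0.98). Lower more often were kinesins (20 of 33 lower and 4 higher), condensin, cohesin and MCM subunits (20 of 24 lower and 1 higher), integrin subunits (11 of 21 lower and 3 higher, among them Itga4 at -2.96 and Itga11 at -2.69) and zinc finger genes named Zfp (104 of 319 lower and 27 higher). For the Zfp genes the shares were 32.6% lower and 8.46% higher.

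The direction of change also differed with the length of the gene on the chromosome. Protein-coding genes as a whole had 28.3% higher and 28.2% lower. Among protein-coding genes in the shortest of 4 equal classes of genomic span (0.443 to 10.5 kb), 36.4% were higher and 17.2% lower. In the longest class (59.1 to 2390 kb), 21.0% were higher and 42.1% lower. The classes between gave 30.3% higher and 23.2% lower (10.5 to 24.7 kb) and 25.3% higher and 30.4% lower (24.7 to 59.1 kb). The medians ran 0.12, 0.04, -0.02 and -0.14 from the shortest class to the longest. In DOX 3C over DOX they ran 0.09, 0.02, -0.03 and -0.13, and in DOX UNC over DOX 0.02, 0.01, 0.00 and 0.00. The median span of cytosolic ribosomal protein genes was 3.15 kb, that of complex I genes 7.74 kb, that of kinesins 53.4 kb and that of integrin subunits 62.5 kb, so family and span overlap. Of 69 small nucleolar RNAs, 32 were higher and 0 lower, against 25.3% and 24.6% of all genes tested.

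**Figure D5:**
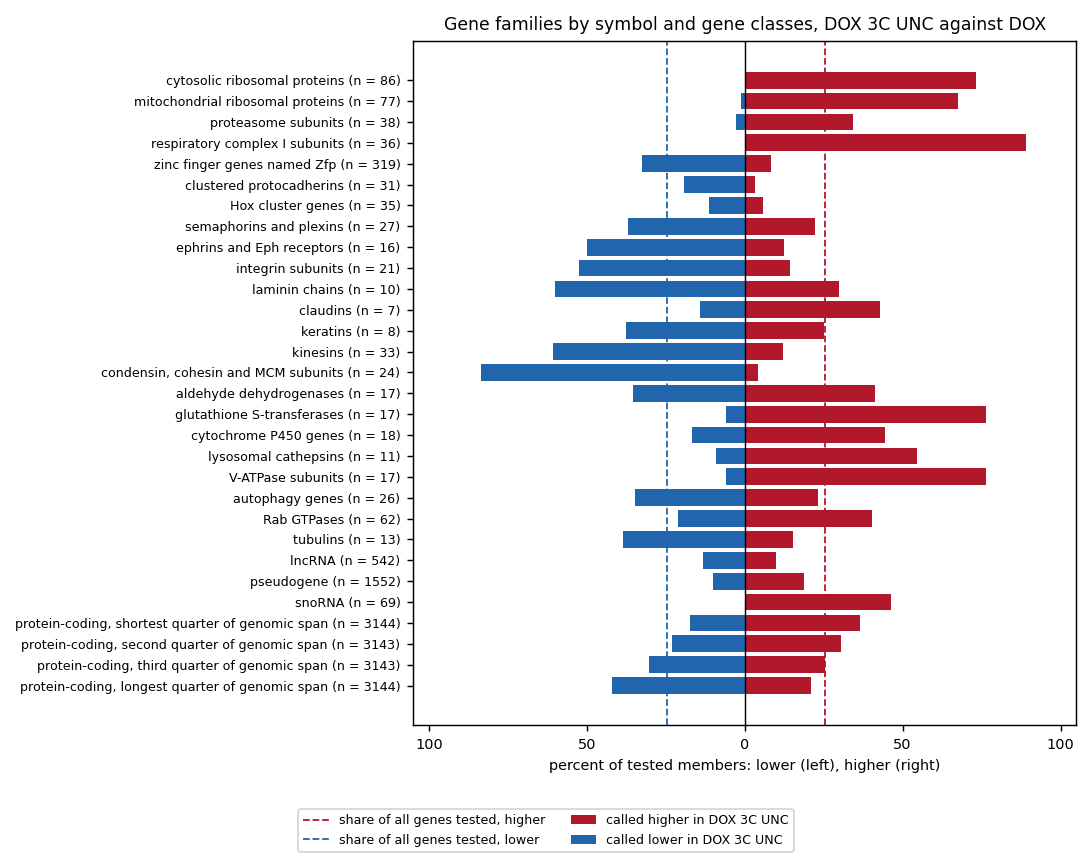
Percent of tested members of gene families, RNA classes and 4 equal classes of protein-coding genes by genomic span (rows, with the number tested) called higher (red, right) or lower (blue, left) in DOX 3C UNC against DOX; dashed lines are the shares of all genes tested, 25.3% higher and 24.6% lower. Blue shares grow from 17.2% in the shortest to 42.1% in the longest class. All protein-coding genes tested had 28.3% higher and 28.2% lower.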

How the data were processed

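RNA was made with RNeasy Plus and a TruSeq stranded total RNA kit with ribosomal RNA removal, per the labels. The mm10 build and the tools HTSeq 0.5.4p3, DESeq, TopHat2 2.1.0 and SAMtools 1.8 are named per the submitters' processing notes; whether counting used strand is not given in the sources used here. The deposited signal of each library was a normalised read count, that is reads divided by 1 factor per library, as the values themselves show: 100% of 649308 deposited values came out whole within 0.01 read, so reads could be recovered. The table also held 2 columns that match no listed sample, which were not used. ChIP and iPSC samples were not analysed here.

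The main test was limma 3.58.1 (R 4.3.3, mean-variance trend) on log2(value + 1), with all 12 reprogramming libraries in 1 fit and 4 groups, which share 1 estimate of the spread. Genes were kept where 3 or more libraries reached a value of 10 (16138 of 54109), p was adjusted over all of them by Benjamini-Hochberg, and calls were made at 0.05. A gene near 0 in 1 group could pass only through groups where it was higher, as Slpi, Cyp1a1, Notum and Cldn4 did. Counts and medians of lists follow in part from this filter. The labels do not say whether the shared replicate numbers pair libraries, and the main test did not pair them. A fit with the replicate number as a block was run as an alternative for every comparison. For some pairs of groups, every same-numbered correlation of deviations from the group means was over 0.1. These were DOX 3C UNC and DOX 3C (0.110 to 0.191), DOX 3C UNC and DOX UNC (0.155 to 0.205) and DOX 3C and DOX (0.106 to 0.156). For DOX 3C UNC and DOX the correlations were 0.0679 to 0.128. Pairing in some comparisons would carry over to the others, so these values do not settle it. edgeR 4.0.16 and DESeq2 1.42.0 were run on recovered reads as alternatives, and the fits were tested on simulated data. Intervals and floors (95%, floor of 3 reads over a group) cover counting error only. Tables and figures used Python 3.11.15, pandas 2.3.3, numpy 2.4.6 and matplotlib 3.10.9.

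Named genes were the 12 largest increases and 12 largest decreases among called genes with a mean of at least 100 in the higher group, no overlap and a symbol other than a predicted gene's, in each list the 4 members lowest in p, and a fixed set of markers. Other members of the lists were named after their values had been seen. The comparison and the gene lists were chosen with earlier results of these data known, and the families by symbol were added after the counts of calls had been seen. Promoters were searched for all Wnt genes called higher, and 2 are printed. The values of 1 member of the lists are not reported here.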

Additional observations from a re-analysis of the deposited data

Results flagged for a closer look

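For 4 named genes the effect of UNC differed according to whether 3C was present, by the interaction term of the limma fit (UNC effect with 3C minus UNC effect without 3C), which was called for 10 of 16138 genes (0.062%). Xdh had 813, 638 and 688 normalised counts in DOX 3C UNC, 324, 279 and 302 in DOX 3C, 17.9, 19.7 and 21.4 in DOX UNC and 18.4, 22.8 and 19 in DOX, an interaction of 1.26 (adjusted p = 0.0197). UNC thus went with a higher Xdh level only where 3C was also given. Lgals9 had 134, 148 and 170 in DOX 3C UNC, 71.2, 60.0 and 62.5 in DOX 3C, 367, 418 and 433 in DOX UNC and 368, 420 and 392 in DOX (1.16, adjusted p = 0.0113). Its level with all compounds lay between those of DOX 3C and DOX.

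Pou5f1 had 1594, 1839 and 1739 in DOX 3C UNC, 2384, 2539 and 2529 in DOX 3C, 3421, 3507 and 3286 in DOX UNC and 3499, 3556 and 3568 in DOX (interaction -0.47, adjusted p = 0.0230). Pfkp had 2867, 3291 and 3050 in DOX 3C UNC, 4088, 4328 and 4180 in DOX 3C, 1752, 1712 and 1633 in DOX UNC and 1661, 1610 and 1622 in DOX (-0.51, adjusted p = 0.0196). For both genes the level was lower with UNC than without it where 3C was given. Without DOX 3C 1 the interaction kept its sign and call in all 4 genes, with adjusted p of 0.0160 for Xdh, 0.0101 for Lgals9, 0.0160 for Pou5f1 and 0.0130 for Pfkp.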

How the results depend on the processing

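Over 18 alternative settings (scaling, pseudocount, filter, tool, fitted libraries, replicate block and leaving out each of the 6 libraries or, added after the data had been seen, DOX 3C 1), 7222 to 8677 genes were called, against 8053 as reported. Leaving out 1 library gave 7222 to 8046 called genes, 3637 to 4065 higher and 3542 to 3981 lower, and 1715 to 1801 called and changed at least 2-fold, against 1790 as reported. That count was 1099 when genes had to reach 50 normalised counts in at least 3 libraries, a filter that tests fewer genes. With equal library totals 4514 genes were higher and 3601 lower. Of 160 named genes called, 155 kept their call under every alternative, and none of the 3042 named-gene values reversed. Ptprc, Mrc1 and Esam were among those that lost their call under some settings. In DOX 3C UNC and DOX, same-numbered libraries deviated together weakly (correlations of 0.0679 to 0.128, against -0.0905 to -0.0270 for other pairs), and over all pairs of groups these ranges were 0.0595 to 0.223 and -0.194 to -0.0103. Deviations within a group sum to 0, so positive values for same-numbered pairs push the other pairs below 0. The values of the other pairs are thus not a separate result. Every library correlated best with its own number in each other group, a hint from the data and not from the design. With the replicate block limma called 8677 genes, of which 8049 were also called without it, DOX UNC against DOX had 409 in place of 98 and the interaction 413 in place of 10. Ehmt1 was called lower with the block in limma (adjusted p = 0.0377) and edgeR (0.0193), and so was Col1a1 (0.0285 and 0.0124). Without DOX 3C 1, DOX 3C over DOX was 3.73 for Ahr, 5.22 for Ahrr, 5.26 for Axin2, -1.22 for Col1a1, -4.07 for H19, 0.44 for Fabp4, 1.28 for Ly6a and -0.19 for Thy1, with medians of 0.96 for NRF2 and -1.46 for smooth muscle genes and of 0.10, 0.02, -0.03 and -0.13 over the span classes. UNC added to 3C then gave 0.99 for Ahr, 0.83 for Ahrr, 1.04 for Col1a1, 0.95 for Acta2, 1.18 for Lox, -0.56 for Pou5f1 and 0.91 for Thy1, all with the same call. Depth limits the genes with few reads, and 3 libraries a group limit the precision of all values.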
